A study of Mus musculus with 18 samples.

Results

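The comparison described here set rapamycin against SL0101 in differentiating DR-ER-Hoxb8 cells, an immortalized mouse line of myeloid progenitors. It used 4 of the 18 RNA-seq libraries of the study, 2 from rapamycin and 2 from SL0101 (SL0101-01 in the labels), chosen by their sample titles. The cells had been kept as progenitors with SCF and b-estradiol and were then cultured for 3 days with SCF but without b-estradiol. During those days they received rapamycin at 100 nM, SL0101 at 10 nM or the solvent DMSO, and 2 DMSO libraries entered the same statistical fit. The SL0101 dose is given as labelled and is far below the concentrations at which the compound is usually used; whether its unit is right could not be checked. All 6 libraries share the line, the medium and the withdrawal of b-estradiol. Both inhibitors were given at a single dose, the doses differ, and neither mTORC1 nor RSK activity was measured in these libraries. The other 12 libraries are granulocyte-monocyte progenitors (GMPs) from mouse bone marrow, with 3 libraries for each of 2 knockouts (Raptor KO and Tsc2 KO) and for the fl/fl control of either one. The labels do not state whether replicates are separate cultures, so the p-values measure the spread between these libraries, which may be technical.

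Rapamycin bound to the protein FKBP12 inhibits mTORC1, the kinase complex that promotes translation, ribosome production and lipid synthesis when nutrients and growth factors are present. SL0101 is known as an inhibitor of the RSK kinases, which act downstream of ERK in the growth factor pathway. In ER-Hoxb8 lines, a Hoxb8 protein fused to the estrogen receptor holds progenitors immature while estradiol is present, and its withdrawal lets them mature toward granulocytes and monocytes. Neutrophil precursors make primary (azurophil) granule proteins early and secondary (specific) granule proteins later.

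Each Hoxb8 library held 2.31 to 3.30 M fragments, and 10871 to 11842 genes reached a value of 1. A value is the number of fragments of a gene scaled by the library's size factor, with no correction for gene length. The neutrophil markers, 10 in all, were expressed in every inhibitor library, with a summed value of 117500 and 150400 in rapamycin and 76920 and 110800 in SL0101. Markers of erythroid, lymphoid, dendritic and stromal cells summed to at most 7.84 in any inhibitor library, and those of mast cells and basophils to at most 39.2. Eosinophil markers summed to 41.2 to 63.7, and megakaryocyte markers to 25.1 to 53.2. Monocyte markers summed to 4549 and 4001 in rapamycin and 3732 and 3961 in SL0101, with C1qa below 1 in all 4. The markers of immature progenitors summed to 2698 and 2448 in rapamycin and 2096 and 2284 in SL0101. In bulk RNA, a change in the number of cells at a stage and a change in RNA per cell cannot be told apart.

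Rapamycin-treated cells had more RNA of primary granule proteins and ribosomal proteins than SL0101-treated cells. They had less RNA for cholesterol synthesis, fatty acid desaturation, mitosis and DNA replication. Of 11804 genes tested, 1047 (8.87%) passed in limma at a Benjamini-Hochberg adjusted p under 0.05, 523 higher (4.43%) and 524 lower (4.44%) in rapamycin. Among those, 279 (2.36%) differed by at least 2-fold, 200 of them higher and 79 lower. The median log2 fold change over all genes tested was 0.0085. Fold changes are rapamycin minus SL0101 on the log2(value + 1) scale, which understates those of genes near 0. With every library scaled to the same total, the split moved to 440 higher and 699 lower.

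The number of calls depended on how the spread was estimated and on single libraries. Without SL0101 replicate 1, 128 genes passed, 80 higher and 48 lower. The number was 561 without DMSO replicate 1, 592 without DMSO replicate 2 and 695 without rapamycin replicate 2. Without a trend of the variance with expression, limma called 0 genes, while 2150 had an unadjusted p under 0.05. No gene that passed changed direction in any of the 19 alternative settings, but many of these settings could hardly show a reversal. In 1024 called genes with a higher group mean of at least 10, the libraries of the inhibitors did not overlap. Leaving out 1 library cannot reverse the sign of such a gene. Settings that changed only the trend, robust estimation or filter, or dropped DMSO libraries, leave the fold change as it is. The unchanged directions are thus not a measure of robustness in these settings.

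**Figure D1:**
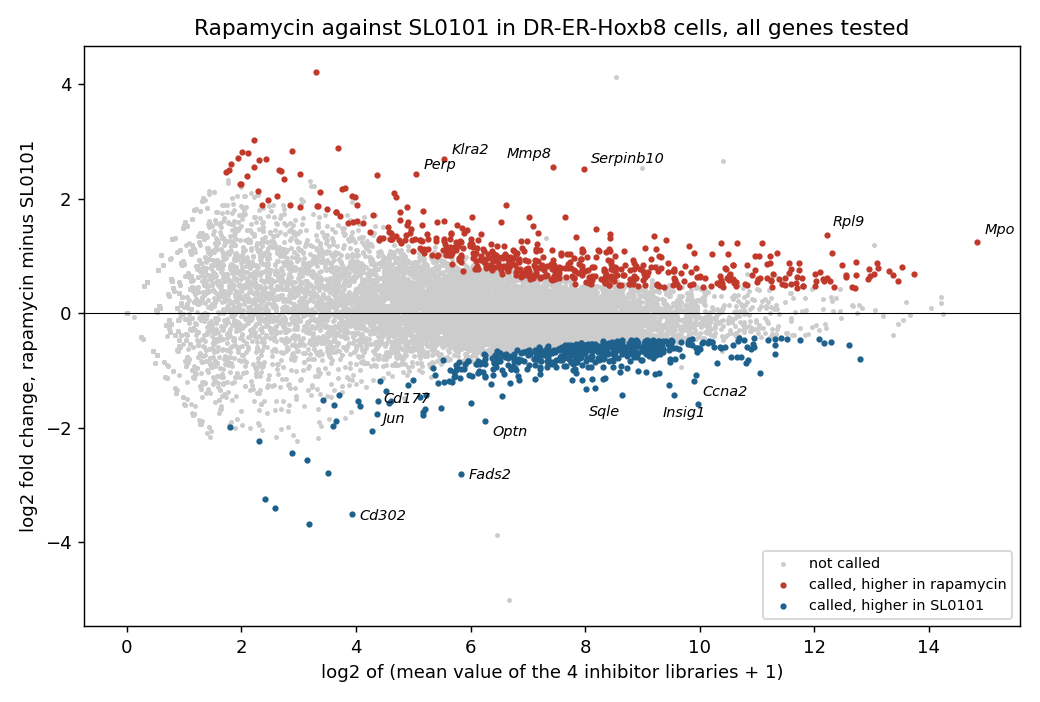
Each point is a gene tested; the horizontal axis is log2 of its mean value in the 4 inhibitor libraries plus 1, and the vertical axis is its log2 fold change, rapamycin minus SL0101. Red points (523) passed higher and blue points (524) passed lower in rapamycin; Mpo lies at the far right, and Fads2 and Cd302 at the bottom.

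Genes of cholesterol synthesis were lower in rapamycin than in SL0101. Of 26 sterol genes tested, 13 were lower and 0 higher (background 4.44% and 4.43%), with a median log2 fold change of -0.60. In 20 of the 26, both rapamycin libraries lay below both SL0101 libraries, against 25.1% of all genes. The summed value of the list was 5906 and 5929 in rapamycin, 7265 and 7845 in DMSO, and 9403 and 9739 in SL0101. Both inhibitor groups thus lay outside the DMSO pair, on opposite sides. Against DMSO, 1 sterol gene was higher and 6 lower in rapamycin (background 5.4% and 6.35%), and 4 were higher and 0 lower in SL0101 (background 5.09% and 5.79%). Without SL0101 replicate 1, the number lower was 5, without SL0101 replicate 2 it was 6, and without rapamycin replicate 2 it was 8.

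Insig1, the sterol sensor that retains the SREBP precursor in the endoplasmic reticulum and is itself an SREBP target, had values of 404 and 401 in rapamycin, 1142 and 1039 in SL0101, and 634 and 600 in DMSO. The rapamycin libraries were the lowest and the SL0101 libraries the highest. The log2 fold change was -1.43 ± 0.14 (SE; limma adjusted p = 3.89e-06). Insig1 was lower in rapamycin than in DMSO (-0.61, limma adjusted p = 0.00515) and higher in SL0101 than in DMSO (0.82, limma adjusted p = 0.000554). Both of these comparisons use the same DMSO libraries.

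Squalene epoxidase, Sqle, which catalyses an early oxygen-dependent step of the pathway, had values of 228 and 203 in rapamycin, 652 and 510 in SL0101, and 394 and 349 in DMSO. The order of the groups was that of Insig1, without overlap, and the log2 fold change was -1.42 ± 0.16 (limma adjusted p = 2.01e-05). Hmgcs1, the cytosolic HMG-CoA synthase, had 395 and 377 in rapamycin, 826 and 784 in SL0101, and 634 and 725 in DMSO. Its log2 fold change was -1.06, and its difference from DMSO passed in rapamycin (-0.81) but not in SL0101 (0.25, limma adjusted p = 0.309). The lanosterol demethylase Cyp51 stood at 146 and 157 in rapamycin, 359 and 325 in SL0101, and 250 and 273 in DMSO, a log2 fold change of -1.17 between the inhibitors. Insig1, Sqle, Hmgcs1 and Cyp51 passed without each library in turn.

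Dhcr7, a reductase at the end of the pathway, was also lower (-0.87), as was the lanosterol synthase Lss (-0.98). Dhcr7 did not pass without SL0101 replicate 1, and without SL0101 replicate 2, Lss did not pass (adjusted p = 0.0846 in limma). Without rapamycin replicate 2, neither Dhcr7 nor Lss passed. The 13 sterol genes that did not pass ranged from -1.09 for Acat2 to 0.11 for Ebp.

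Promoter sequences are shown for sterol genes that passed, because the CCAAT box, bound by NF-Y, is a known partner of SREBP sites. Those shown were taken in order of p among genes whose promoter window holds the box, and Sqle is not among them. The sequences come from RefSeq promoter windows on GRCm38.p6, and 18 of the 26 sterol genes had 23 windows. A window runs from 250 bases before to 50 bases after a transcript start, and motifs were sought only in the 250 bases before it. CCAAT on either strand was present in 17 of these 23 windows (73.9%), against 35.7% of the 11356 windows of all tested genes. The sterol response element TCACNCCAC on either strand was in 1 of 23 (4.35%), against 1.0% of all windows. The sequences below run 5′ to 3′ on the gene's strand, with the CCAAT box in capitals, which reads ATTGG where it lies on the other strand.
Insig1 (chr5:28071166-28071230, plus strand): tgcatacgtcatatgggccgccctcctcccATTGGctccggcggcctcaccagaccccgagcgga
Hmgcs1 (chr13:119690276-119690340, plus strand): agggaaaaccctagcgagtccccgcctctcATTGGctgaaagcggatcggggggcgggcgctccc
Cyp51 (chr5:4104698-4104756, minus strand): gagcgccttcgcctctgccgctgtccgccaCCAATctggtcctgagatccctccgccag
Dhcr7 (chr7:143830135-143830199, plus strand): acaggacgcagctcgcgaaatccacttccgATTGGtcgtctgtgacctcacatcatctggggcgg
Lss (chr10:76531513-76531577, plus strand): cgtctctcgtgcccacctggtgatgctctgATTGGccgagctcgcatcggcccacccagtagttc
In Insig1 the box ends 211 bases before the transcript start, and in Hmgcs1, Cyp51, Dhcr7 and Lss it ends 40, 24, 44 and 57 bases before it. The letters are a description of these windows, and binding of a factor was not measured.

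A desaturase, Fads2, had the largest fold change among the called genes of both lipid lists. Fads2, the delta-6 desaturase that starts the making of long polyunsaturated fatty acids, had values of 12.8 and 13.4 in rapamycin, 115 and 82.6 in SL0101, and 75.8 and 74.7 in DMSO. Both rapamycin libraries were far below all others, while DMSO lay just under SL0101. The log2 fold change was -2.80 ± 0.28 (SE; limma adjusted p = 4.82e-06). Against DMSO it was -2.43 in rapamycin (limma adjusted p = 3.75e-06) and 0.37 in SL0101, which did not pass (limma adjusted p = 0.461). Scd2, a stearoyl-CoA desaturase that makes monounsaturated fatty acids, had 151 and 141 in rapamycin, 415 and 323 in SL0101, and 321 and 342 in DMSO. Its log2 fold change was -1.32 ± 0.17 (limma adjusted p = 7.13e-05), and again the rapamycin libraries stood alone at the bottom.

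Of 17 genes of fatty acid synthesis and desaturation tested, 7 were lower in rapamycin and 0 higher (background 4.44% and 4.43%), with a median of -0.50. Acsl1, which activates long-chain fatty acids, differed in another way: 1403 and 1103 in rapamycin, 2126 and 2112 in SL0101, and 1338 and 1328 in DMSO. Here SL0101 stood above and rapamycin and DMSO overlapped, with a log2 fold change of -0.77 between the inhibitors. Fatty acid synthase, Fasn, had 483 and 443 in rapamycin, 806 and 671 in SL0101, and 492 and 455 in DMSO, the same layout as Acsl1 (-0.67). Fads1, the delta-5 desaturase, had 71.5 and 124 in rapamycin, 197 and 197 in SL0101, and 186 and 189 in DMSO (-1.05, and -0.66 without rapamycin replicate 1). Acly, which makes cytosolic acetyl-CoA, and Srebf1, the gene of the SREBP-1 factors, were lower as well (-0.61 and -0.77, the latter -0.45 without rapamycin replicate 2). Fads1, Fasn, Acly and Srebf1 did not pass without SL0101 replicate 1, where 3 members of the list did. Acly and Srebf1 also lost their calls without rapamycin replicate 2, and Acly without SL0101 replicate 2. None of the 17 had a fold change above 0.

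**Figure D2:**
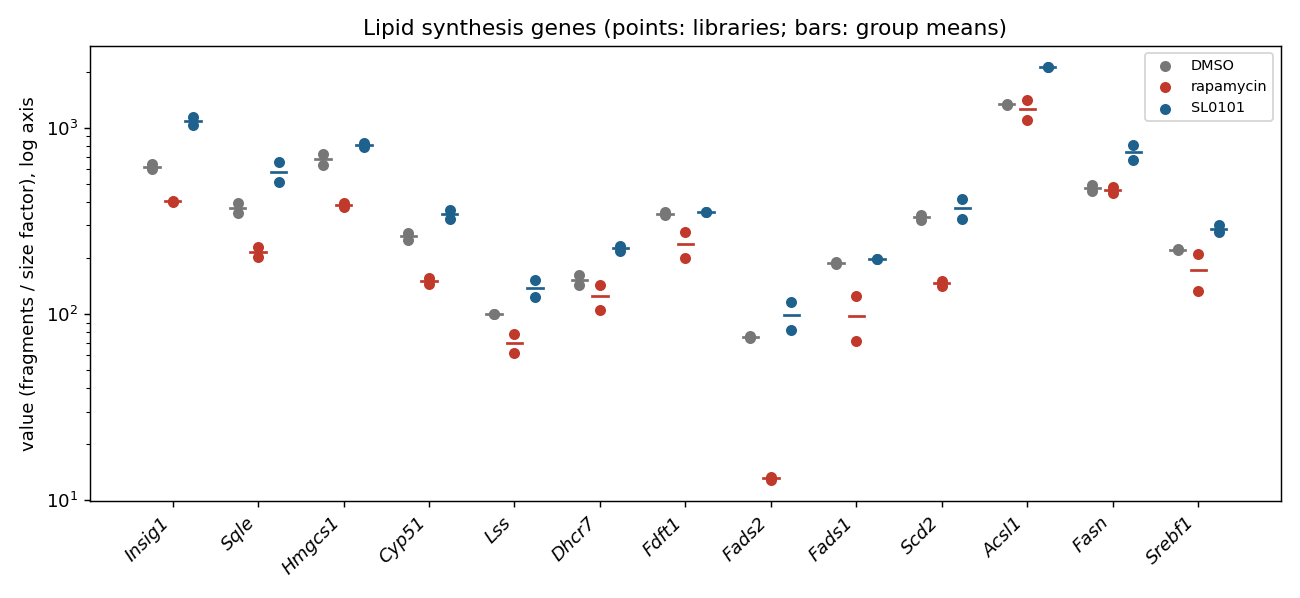
Values of 13 lipid genes in each Hoxb8 library (points, log axis) with group means (bars): DMSO grey, rapamycin red, SL0101 blue. In Fads2 the rapamycin libraries are at 12.8 and 13.4 and the others between 74.7 and 115, while in Acsl1 and Fasn the SL0101 libraries are above both other groups.

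Primary granule genes were higher in rapamycin. Of 21 tested, 9 were higher and 0 lower (background 4.43% and 4.44%), with a median log2 fold change of 0.59. Against the same DMSO libraries, the median of the list was 0.71 in rapamycin and 0.52 in SL0101. The summed value of the list was 77576 and 77772 in rapamycin, 37789 and 48562 in SL0101, and 23146 and 25660 in DMSO. In this sum, both inhibitor groups exceeded DMSO, and rapamycin exceeded SL0101. A large part of the rapamycin sum was the single gene Mpo, given below. The number that passed was 2 without SL0101 replicate 1, and 4 without rapamycin replicate 2.

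Myeloperoxidase, Mpo, the main enzyme of azurophil granules, had 43031 and 39285 in rapamycin, 14940 and 19997 in SL0101, and 6305 and 6634 in DMSO. The 3 groups did not overlap, and the log2 fold change between the inhibitors was 1.25 ± 0.14 (SE; limma adjusted p = 1.55e-05). Quantile normalization, which compresses the top of the distribution, lowered it to 0.44. Against DMSO, Mpo was higher by 2.67 in rapamycin and by 1.42 in SL0101 (limma adjusted p = 4e-11 and 5.09e-07). Serglycin, Srgn, the proteoglycan that packs granule proteases, had 2321 and 2969 in rapamycin, 1143 and 1512 in SL0101, and 736 and 871 in DMSO (1.00, limma adjusted p = 0.000633). Mpo and Srgn passed without each library in turn.

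The neutrophil serine proteases followed with smaller differences. Cathepsin G, Ctsg, had 3475 and 4290 in rapamycin, 1783 and 2501 in SL0101, and 865 and 1178 in DMSO, a log2 fold change of 0.87. Proteinase 3, Prtn3, had 5175 and 5807 in rapamycin and 3226 and 4015 in SL0101 (0.61, and 0.37 under quantile normalization, where it did not pass). Neutrophil elastase, Elane, had 3551 and 4836 in rapamycin and 3049 and 2917 in SL0101 (0.47, limma adjusted p = 0.0458, and 0.25 under quantile normalization or without rapamycin replicate 2). None of Ctsg, Prtn3 and Elane passed without SL0101 replicate 1, and Prtn3 and Elane also lost their calls without rapamycin replicate 2. Elane did not pass either without SL0101 replicate 2 or without either DMSO library.

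Serpinb10, a protease inhibitor of the serpin family, was higher in rapamycin than in either other group. Its values were 353 and 501 in rapamycin, 60.3 and 86.4 in SL0101, and 93.2 and 119 in DMSO. Rapamycin stood alone above both other groups, and the log2 fold change was 2.52 ± 0.22 (SE; limma adjusted p = 5.08e-07). Against DMSO it was 1.99 in rapamycin (limma adjusted p = 2.03e-06) and -0.54 in SL0101 (limma adjusted p = 0.125).

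Secondary granule and maturation genes differed in both directions. Of 44 tested, 11 were higher and 4 lower in rapamycin (background 4.43% and 4.44%), with a median of 0.18, and 4 were higher without SL0101 replicate 1. Mmp8, the neutrophil collagenase stored in specific granules, had 265 and 326 in rapamycin, 64.7 and 37.1 in SL0101, and 265 and 288 in DMSO. Rapamycin overlapped with DMSO and SL0101 was below both, with a log2 fold change of 2.56 ± 0.22 (SE; limma adjusted p = 5.08e-07). Against DMSO, Mmp8 differed by 0.09 in rapamycin and -2.47 in SL0101 (limma adjusted p = 0.863 and 1.31e-07).

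Ifitm6, an interferon-inducible membrane protein, had 165 and 228 in rapamycin, 49.8 and 71.2 in SL0101, and 354 and 480 in DMSO, so that rapamycin lay between the other groups (1.69, limma adjusted p = 7.13e-05). Fpr2, a formyl peptide receptor, showed the same order with 134 and 129 in rapamycin, 61.2 and 53.8 in SL0101, and 247 and 332 in DMSO (1.18). The chemokine receptor Cxcr2 had 142 and 149 in rapamycin, 54.2 and 84.9 in SL0101, and 152 and 209 in DMSO (1.09). The decoy receptor Il1r2 had 144 and 186 in rapamycin, 56.8 and 79.6 in SL0101, and 101 and 129 in DMSO (1.27). Cxcr2 and Il1r2 did not pass without SL0101 replicate 1. The granule proteins lactoferrin (Ltf) and gelatinase B (Mmp9) were higher by 0.85 and 1.11. Ltf was 0.49 without SL0101 replicate 1 and under quantile normalization, and Mmp9 was 0.65 without rapamycin replicate 1. Ltf did not pass without SL0101 replicate 1 or rapamycin replicate 1, nor did Mmp9 without rapamycin replicate 1 or SL0101 replicate 2.

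Other maturation genes went the opposite way. Cd177, a neutrophil surface glycoprotein, had 21.1 and 20.2 in rapamycin, 60.3 and 74.3 in SL0101, and 272 and 239 in DMSO. Both inhibitors lay below DMSO and rapamycin was the lower (-1.65 ± 0.24 SE, limma adjusted p = 0.000235). Haptoglobin, Hp, had 5295 and 5127 in rapamycin, 9176 and 8935 in SL0101, and 6931 and 7828 in DMSO, with SL0101 highest (-0.80, limma adjusted p = 0.000616). Chil1, a chitinase-like protein, was lower by -0.98 on the log2 scale and did not pass without SL0101 replicate 2. For S100a8 the replicates of each inhibitor were far apart, with 12353 and 27201 in rapamycin and 14900 and 22859 in SL0101. Its difference of -0.01 had a 95% interval from -1.60 to 1.59, too wide to tell the groups apart. Camp, the cathelicidin of specific granules, also overlapped, at 651 and 1538 in rapamycin and 1381 and 1794 in SL0101 (-0.65, limma adjusted p = 0.528). Without rapamycin replicate 2, Camp passed (-1.27, limma adjusted p = 0.000454).

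**Figure D3:**
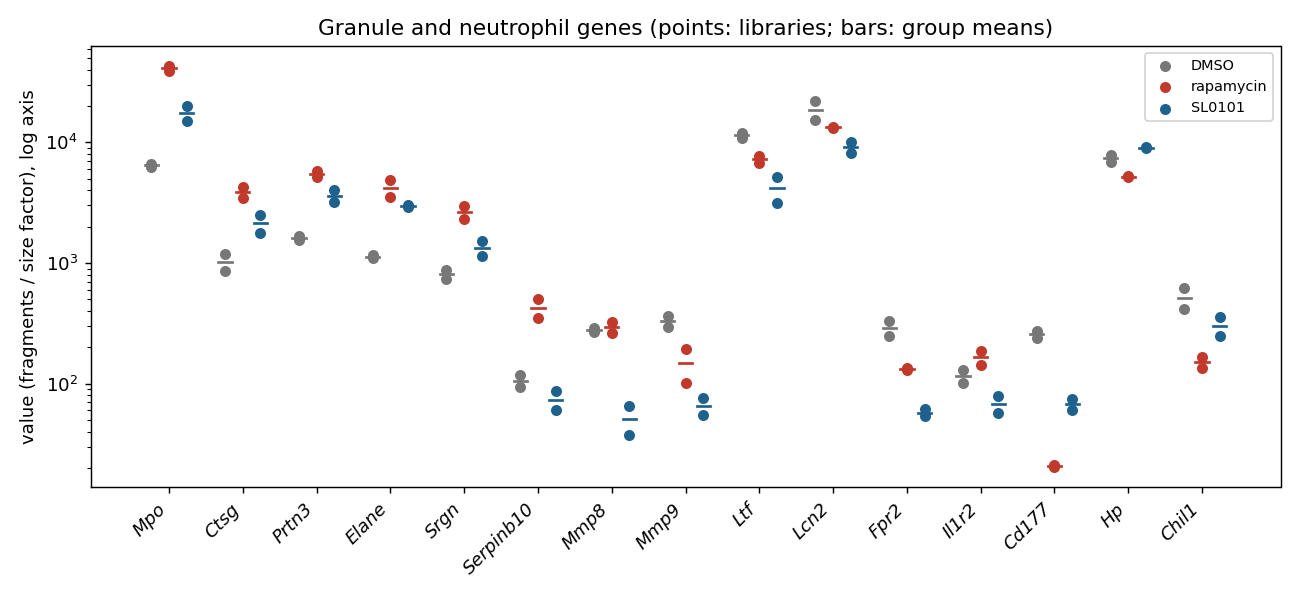
Values of 15 granule and neutrophil genes in each Hoxb8 library (points, log axis) with group means (bars): DMSO grey, rapamycin red, SL0101 blue. Mpo rises from DMSO to SL0101 to rapamycin, Mmp8 is low in SL0101 alone, and Cd177 and Hp are lower in rapamycin than in SL0101.

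Among monocyte and macrophage genes, 9 of 51 were higher (17.6%) and 4 lower (7.84%), against 4.43% and 4.44% of all genes, with a median of 0.07. Against the same DMSO libraries, 1 was higher and 31 lower in rapamycin (median -1.52), and 0 higher and 35 lower in SL0101 (median -1.68). The background there was 5.4% and 6.35% in rapamycin, and 5.09% and 5.79% in SL0101. Emr1, the F4/80 antigen, had 581 and 483 in rapamycin, 296 and 297 in SL0101, and 559 and 623 in DMSO. The rapamycin and DMSO libraries overlapped and SL0101 was below them (0.84, limma adjusted p = 0.00171). The chemokine Ccl9 had 849 and 809 in rapamycin, 364 and 471 in SL0101, and 614 and 712 in DMSO, with rapamycin highest (1.00). Mpeg1, the macrophage pore-forming protein perforin-2, had 268 and 269 in rapamycin, 138 and 156 in SL0101, and 622 and 867 in DMSO (0.86, not past the test without SL0101 replicate 1). Ccr2, the monocyte receptor for CCL2, had 52.2 and 45.9 in rapamycin, 15.7 and 25 in SL0101, and 124 and 179 in DMSO (1.26, likewise not past the test without SL0101 replicate 1). The lower genes were Clec4n (-1.17), the lectin Dectin-2, Tlr2 (-0.73), a receptor of bacterial lipoproteins, Sirpa (-0.60), the receptor of CD47, and Ctsb (-0.44), the lysosomal protease cathepsin B. Clec4n had 19.2 and 17.9 in rapamycin, 42.0 and 43.9 in SL0101, and 228 and 320 in DMSO, with rapamycin lowest. None of these 4 passed without SL0101 replicate 1, and of them Clec4n alone passed without rapamycin replicate 2. Ctsb also did not pass without SL0101 replicate 2 or either DMSO library. For Irf8, a factor of monocyte development, the difference was 0.01 with a 95% interval from -0.60 to 0.62, and both inhibitors were lower than DMSO, by -1.52 in rapamycin and -1.53 in SL0101 on the log2 scale.

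Some genes were low in SL0101 alone. Klra2, a lectin-like receptor of the Ly49 family, had 88.0 and 69.4 in rapamycin, 16.6 and 7.58 in SL0101, and 60.0 and 93.0 in DMSO. Rapamycin and DMSO overlapped, and the log2 fold change between the inhibitors was 2.69 ± 0.34 (SE; limma adjusted p = 7.13e-05). Itga1, an integrin subunit that binds collagen, had 12.8 and 11.2 in rapamycin, 0.875 and 0.758 in SL0101, and 19.8 and 14.9 in DMSO. With 1 fragment in each SL0101 library, its log2 fold change of 2.84 moved to 1.55 with a pseudocount of 5. Bcl6, a transcriptional repressor, had 212 and 204 in rapamycin, 62.1 and 98.5 in SL0101, and 198 and 239 in DMSO (1.40, limma adjusted p = 0.000317). Trim30a, an interferon-inducible protein, had 71.5 and 87.3 in rapamycin, 22.7 and 31.1 in SL0101, and 70.3 and 63.1 in DMSO (1.54).

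Others were low in rapamycin alone or lower there than in SL0101. Cd302, a C-type lectin of phagocytes, had 4.58 and 0 in rapamycin, 31.5 and 21.2 in SL0101, and 73.5 and 69.7 in DMSO. Its log2 fold change of -3.51 (limma adjusted p = 0.000662) rests on few fragments in rapamycin and was -2.16 with a pseudocount of 5 and -2.27 without rapamycin replicate 2. Tpm4, a tropomyosin of the actin cytoskeleton, had 18.3 and 14.6 in rapamycin, 67.3 and 43.9 in SL0101, and 201 and 183 in DMSO (-1.68). The autophagy receptor Optn had 38.5 and 25.8 in rapamycin, 115 and 124 in SL0101, and 82.2 and 66.4 in DMSO (-1.88, limma adjusted p = 0.000141). Jun, a subunit of the AP-1 factor, had 21.1 and 11.2 in rapamycin, 52.5 and 54.6 in SL0101, and 50.6 and 42.3 in DMSO (-1.73, not past the test without SL0101 replicate 1). Perp, a p53 target of cell junctions, was the reverse, with 47.7 and 61.6 in rapamycin, 7.00 and 12.1 in SL0101, and 10.3 and 14.1 in DMSO (2.43, limma adjusted p = 0.00104).

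Ribosomal protein genes were higher in rapamycin. Of 81 tested, 61 were higher and 0 lower (background 4.43% and 4.44%), with a median log2 fold change of 0.61. In 75 of the 81, both rapamycin libraries lay above both SL0101 libraries, against 26.1% of all genes. The summed value was 277610 and 323400 in rapamycin, 189180 and 195660 in SL0101, and 136320 and 161250 in DMSO, so the order of the 3 groups had no overlap. Against DMSO the medians were 0.95 in rapamycin and 0.34 in SL0101. The number of calls depended on the libraries: it was 11 without SL0101 replicate 1, 29 without rapamycin replicate 2, 31 without SL0101 replicate 2, 39 without DMSO replicate 1 and 38 with the inhibitor libraries alone. Ribosomal protein genes have many near-identical processed pseudogenes, and the assignment of such fragments was not given in the sources used here.

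Rpl9, of the large subunit, had 6077 and 7656 in rapamycin, 2210 and 3191 in SL0101, and 2282 and 3159 in DMSO. SL0101 and DMSO overlapped, and the log2 fold change between the inhibitors was 1.36 ± 0.17 (SE; limma adjusted p = 7.13e-05). Rpl39 had 1396 and 2334 in rapamycin, 687 and 864 in SL0101, and 773 and 924 in DMSO, with rapamycin alone above (1.23). Rpl7 had 6633 and 7031 in rapamycin, 3024 and 3611 in SL0101, and 2569 and 3213 in DMSO (1.05). Rps25, of the small subunit, had 2750 and 3656 in rapamycin, 1502 and 1680 in SL0101, and 1492 and 1731 in DMSO (1.00). These 4 genes passed without each library in turn. Rps27 rested on a single library: it had 527 and 877 in rapamycin and 21.1 and 614 in SL0101, and did not pass (2.55, limma adjusted p = 0.542). It passed without SL0101 replicate 2 (4.94, limma adjusted p = 6.23e-10) and was 0.15 without SL0101 replicate 1. Its values were fractional in all 6 libraries, as where genes share fragments, so Rps27 is uncertain.

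Transcripts of ribosomal proteins begin with a run of pyrimidines, the TOP motif, through which their translation responds to mTORC1, so the start regions are shown. The longest run of C and T was sought in the 30 bases from 10 before to 20 after the RefSeq start on GRCm38.p6, on the gene's strand only. A run of 8 or more was in 25 of 71 windows (35.2%) of 60 ribosomal protein genes, against 11.3% of 11356 windows. The median longest run was 6 against 4. In the lines below the run is in capitals. They show the 5 genes called higher with the smallest p that had a single window with a run of 8 or more. Rpl9, Rpl7 and Rps25 are not among them. In Rpl39 and Rps26 the run lies wholly after the RefSeq start, and in Rps15a, Rps6 and Rpl15 it spans the start.
Rpl39 (chrX:37085203-37085232, minus strand): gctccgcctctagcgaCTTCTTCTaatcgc
Rps15a (chr7:118116128-118116157, minus strand): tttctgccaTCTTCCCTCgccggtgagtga
Rps26 (chr10:128626487-128626516, minus strand): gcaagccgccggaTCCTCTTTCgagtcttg
Rps6 (chr4:86857348-86857377, minus strand): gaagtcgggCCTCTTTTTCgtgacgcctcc
Rpl15 (chr14:18270967-18270996, minus strand): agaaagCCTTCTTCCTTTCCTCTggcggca
All 5 genes were higher in rapamycin, by 1.23, 1.09, 0.82, 0.67 and 0.62 on the log2 scale in the order of the lines, and Rps6 and Rpl15 did not pass without SL0101 replicate 1. Under quantile normalization Rps6 was 0.35 and Rpl15 0.38. RNA level and not translation was measured.

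Of 45 translation factors, 13 were higher (28.9%) and 2 lower (4.44%), with a median of 0.16, against 4.43% and 4.44% of all genes, so the share lower is that of the background. The elongation factor Eef1a1, which brings aminoacyl-tRNA to the ribosome, had 15897 and 14366 in rapamycin, 8194 and 9013 in SL0101, and 6959 and 7963 in DMSO. The 3 groups did not overlap, and the log2 fold change was 0.81 (limma adjusted p = 0.000613). The helicase Eif4a1 had 1535 and 1062 in rapamycin, 599 and 637 in SL0101, and 498 and 637 in DMSO (1.05). Those lower were Eif5 and Eif5a (-0.60 and -0.50), neither past the test without SL0101 replicate 1, nor Eif5a without SL0101 replicate 2. The number higher was 4 without SL0101 replicate 1 and 8 without SL0101 replicate 2. Of ribosome biogenesis and Myc target genes, 2 of 57 were higher (3.51%) and 3 lower (5.26%), shares near the background, the median was -0.04, and the medians against the same DMSO libraries were 0.78 in rapamycin and 0.82 in SL0101.

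Mitotic genes were lower in rapamycin. Of 52 tested, 29 were lower and 0 higher (background 4.44% and 4.43%), with a median of -0.61, and in 41 of the 52 both rapamycin libraries lay below both SL0101 libraries (25.1% of all genes). The summed value was 15329 and 20219 in rapamycin, 26105 and 26776 in SL0101, and 26608 and 27711 in DMSO. SL0101 and DMSO overlapped, and both rapamycin libraries were below all others. Against DMSO the medians were -0.63 in rapamycin and -0.06 in SL0101. The number lower was 9 without SL0101 replicate 1, 17 without rapamycin replicate 1 and 18 without SL0101 replicate 2.

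Cyclin A2, Ccna2, which drives S phase and entry into mitosis, had 507 and 655 in rapamycin, 1486 and 1158 in SL0101, and 1049 and 1096 in DMSO. Rapamycin was lowest without overlap, and the log2 fold change was -1.19 ± 0.16 (SE; limma adjusted p = 0.000103). Plk4, the kinase of centriole duplication, had 165 and 181 in rapamycin, 419 and 349 in SL0101, and 317 and 256 in DMSO (-1.14). Racgap1, a regulator of cytokinesis, had 366 and 454 in rapamycin, 845 and 843 in SL0101, and 728 and 697 in DMSO (-1.05). The centromeric histone Cenpa had 252 and 398 in rapamycin, 634 and 649 in SL0101, and 630 and 631 in DMSO (-1.02), and the spindle motor Kif11 had 307 and 272, 570 and 555, and 482 and 508 in the same order (-0.96). These 5 genes passed without each library in turn. Of the 52 mitotic genes, 23 did not pass, and 4 had a fold change above 0. The proliferation antigen Mki67 did not pass, with 730 and 985 in rapamycin and 838 and 895 in SL0101 (-0.03, 95% interval from -0.35 to 0.29).

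The CHR element TTTGAA is known, with CCAAT boxes, for cell cycle control of mitotic promoters. It was sought on either strand in the 250 bases before the start in the same RefSeq windows (GRCm38.p6). It was in 17 of 47 windows of the mitotic genes (36.2%), against 10.8% of all windows, and CCAAT was in 35 of 47 (74.5%), against 35.7%. The lines below show the matched motif in capitals in 5 genes that passed and hold it, taken in order of p. It reads TTTGAA or, on the other strand, TTCAAA.
Kif11 (chr19:37376333-37376381, plus strand): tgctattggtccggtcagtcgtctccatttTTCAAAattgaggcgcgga
Kif22 (chr7:127042421-127042467, minus strand): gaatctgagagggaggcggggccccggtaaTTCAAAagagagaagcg
Cdc20 (chr4:118437344-118437391, minus strand): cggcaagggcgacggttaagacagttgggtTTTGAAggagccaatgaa
Ube2c (chr2:164769870-164769928, plus strand): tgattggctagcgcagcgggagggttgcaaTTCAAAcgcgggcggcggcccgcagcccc
Ccnb2 (chr9:70421686-70421751, minus strand): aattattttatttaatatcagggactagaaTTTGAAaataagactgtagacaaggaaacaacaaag
The motif ends 13, 11, 12, 23 and 161 bases before the start in the order of the lines, so the Ccnb2 match lies farthest away. The letters are a description of these windows, and whether a match acts as a CHR element was not tested. Kif22, a chromosome motor, and Cdc20, an activator of the anaphase-promoting complex, were lower by -0.86 and -0.84 on the log2 scale. The ubiquitin-conjugating enzyme Ube2c and cyclin B2, Ccnb2, were lower by -0.79 and -0.71, values that were -0.46 and -0.41 without rapamycin replicate 1. Neither Ube2c nor Ccnb2 passed without rapamycin replicate 1 or SL0101 replicate 1, and Ccnb2 also did not pass without SL0101 replicate 2.

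Replication genes were lower too, with another position relative to DMSO. Of 55 S phase genes, 14 were lower and 0 higher (background 4.44% and 4.43%), with a median of -0.42. The summed value was 16441 and 18004 in rapamycin, 22367 and 23822 in SL0101, and 17830 and 18164 in DMSO, so rapamycin overlapped with DMSO and SL0101 was above both. The number lower was 2 without SL0101 replicate 1, 5 without SL0101 replicate 2, 9 without rapamycin replicate 1, 7 without either DMSO library and 8 under quantile normalization. Rrm2, a subunit of ribonucleotide reductase, had 785 and 998 in rapamycin, 1542 and 1713 in SL0101, and 1363 and 1293 in DMSO (-0.88, limma adjusted p = 0.000858). Mcm6, of the replicative helicase, had 1199 and 1191 in rapamycin, 2184 and 1871 in SL0101, and 1222 and 1159 in DMSO (-0.76), and did not pass without SL0101 replicate 1.

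The E2F site TTTCGCGC was likewise sought on either strand in the 250 bases before the start. It was in 5 of 48 S phase windows (10.4%), against 0.546% of all windows. The lines below give the 2 genes that passed and hold it, with the site in capitals, as TTTCGCGC or GCGCGAAA.
Mcm6 (chr1:128359774-128359841, minus strand): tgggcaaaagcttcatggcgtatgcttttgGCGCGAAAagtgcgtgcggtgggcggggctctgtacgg
Mcm5 (chr8:75109326-75109393, plus strand): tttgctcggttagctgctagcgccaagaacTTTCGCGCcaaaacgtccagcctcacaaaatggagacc
The site ends 98 bases before the start in Mcm6 and 145 in Mcm5, another helicase subunit (-0.50). Binding of a factor to these matches was not measured. Mcm5 did not pass without rapamycin replicate 1, without either SL0101 library or without either DMSO library.

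**Figure D4:**
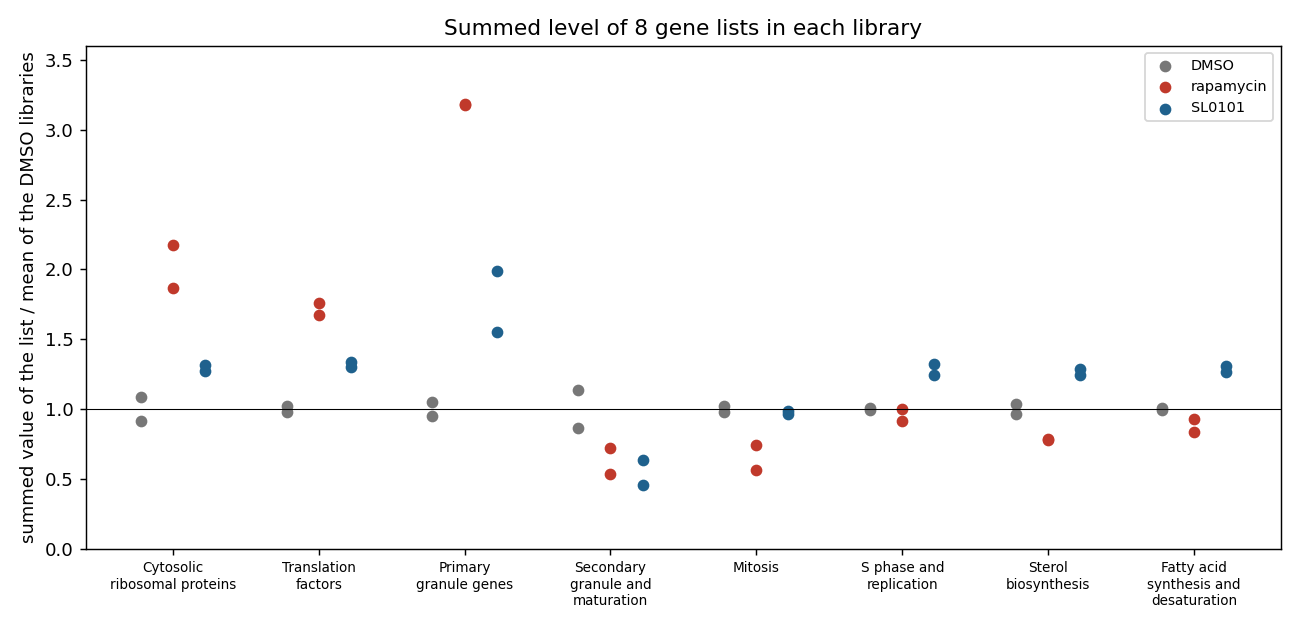
Summed value of 8 gene lists in each library, divided by the mean of the DMSO libraries (vertical axis, from 0). Points are libraries, and the line marks 1. Mpo is a large part of the primary granule sum in rapamycin. Rapamycin reaches 1.87 and 2.17 for ribosomal proteins and 3.18 and 3.19 for primary granule genes, where SL0101 reaches 1.27 and 1.315, and 1.55 and 1.99; for mitosis rapamycin lies at 0.5644 and 0.7445 and SL0101 at 0.9612 and 0.9859.

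Of 42 genes of amino acid and one-carbon metabolism, 6 were lower (14.3%) and 0 higher (median -0.14), and of 35 chaperone genes 7 were lower (20%) and 0 higher (median -0.25), against 4.44% and 4.43% of all genes. Phgdh, the first enzyme of serine synthesis, had 195 and 196 in rapamycin, 473 and 397 in SL0101, and 209 and 245 in DMSO. SL0101 alone was raised, and the log2 fold change was -1.14 ± 0.16 (SE; limma adjusted p = 0.000225). Mthfd2, a mitochondrial one-carbon enzyme and ATF4 target, had 167 and 138 in rapamycin, 302 and 248 in SL0101, and 213 and 209 in DMSO (-0.85, not past the test without SL0101 replicate 1). Of 64 lysosome genes 4 were lower and 0 higher, and of 74 genes of oxidative phosphorylation 3 were lower and 1 higher, shares near the background of 4.44% and 4.43%.

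Sod2, Nfkbia and C5ar1 were lower in rapamycin than in SL0101. Sod2, the mitochondrial superoxide dismutase, had 1446 and 1345 in rapamycin, 3075 and 2673 in SL0101, and 1677 and 1898 in DMSO (-1.04, limma adjusted p = 0.000103). Nfkbia, the inhibitor of NF-kappaB that is also its target, had 1241 and 1288 in rapamycin, 2456 and 2154 in SL0101, and 1308 and 1475 in DMSO (-0.86, limma adjusted p = 0.000611). In both genes, SL0101 stood above the other groups. C5ar1, the receptor of complement C5a, had 217 and 149 in rapamycin, 323 and 368 in SL0101, and 482 and 581 in DMSO (-0.93).

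Among progenitor genes, 4 of 30 were higher (13.3%) and 0 lower, against 4.43% and 4.44% of all genes, with a median of 0.59. Myb, a transcription factor of immature blood cells, had 598 and 591 in rapamycin, 301 and 322 in SL0101, and 248 and 179 in DMSO. Rapamycin was above SL0101 (0.93 ± 0.17 SE, limma adjusted p = 0.00158). Kit, the SCF receptor, did not pass, with 1225 and 1046 in rapamycin and 934 and 1099 in SL0101 (0.16, 95% interval from -0.15 to 0.47), and both inhibitors exceeded DMSO at 541 and 480. Hoxb8 had 803 and 728 in rapamycin, 816 and 815 in SL0101, and 627 and 552 in DMSO, a difference of -0.09 between the inhibitors (95% interval from -0.39 to 0.20). Whether these fragments come from the ER-Hoxb8 construct or the cells' own gene was not tested.

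Of 36 genes of mTORC1, mTORC2 and the TSC complex, 0 were higher and 2 lower (5.56%), which is near the 4.44% of all genes and not a result about the list. They were Rheb, the activator of mTORC1 (-0.70), and Fkbp1a, which encodes FKBP12 (-0.54). Rheb did not pass without rapamycin replicate 1 (-0.44) or SL0101 replicate 1. Among the fits without 1 library, Fkbp1a passed only without SL0101 replicate 2, and was -0.31 without SL0101 replicate 1. Mtor itself had 98.1 and 108 in rapamycin and 123 and 116 in SL0101 (-0.22, 95% interval from -0.65 to 0.21), and Rptor 63.2 and 68.3 against 81.3 and 68.2 (-0.18, 95% interval from -0.65 to 0.29). Rps6ka1, which encodes RSK1, had 1689 and 1381 in rapamycin and 1259 and 1507 in SL0101 (0.15). Rps6ka3, which encodes RSK2, had 84.3 and 105 in rapamycin, 38.5 and 46.2 in SL0101, and 57.7 and 53.1 in DMSO (1.14, limma adjusted p = 0.00778). Rps6ka4, which encodes the related kinase MSK2, was lower (-0.97). Neither Rps6ka3 nor Rps6ka4 passed without rapamycin replicate 2 or SL0101 replicate 1, and Rps6ka6 was at 0 in all 6 libraries. The ERK-induced list of 28 genes held 1 call, Jun, a share lower (3.57%) near the background.

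**Figure D5:**
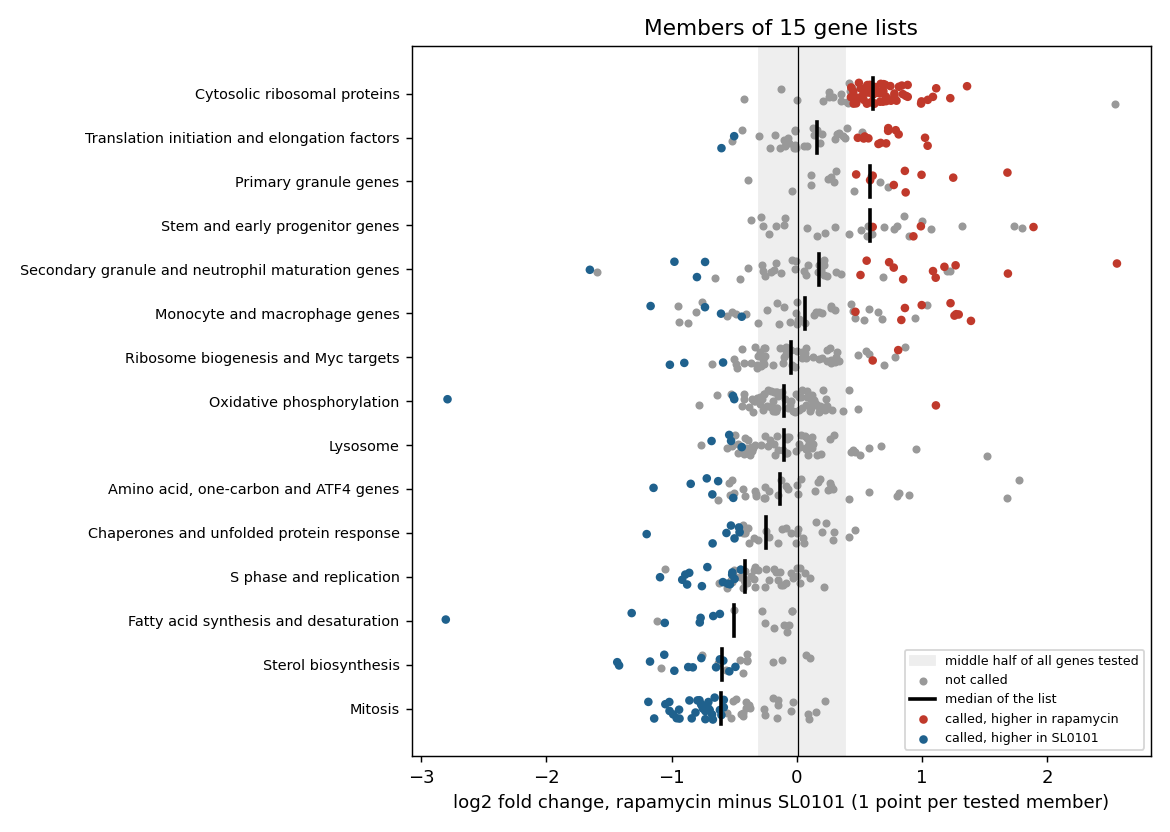
Log2 fold changes, rapamycin minus SL0101, of the tested members of 15 gene lists (1 point per gene; red passed higher, blue passed lower, grey not called; black bars are list medians). The shaded band is the interquartile range of all genes tested; ribosomal proteins, primary granule and progenitor genes have medians near 0.6, and sterol and mitosis genes near -0.6.

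The knockout GMPs share no library with the Hoxb8 cells, so the genes called between the inhibitors could be looked up there. Rptor, the targeted gene, had 88.0, 78.6 and 86.8 in Raptor fl/fl and 61.5, 58.7 and 69.5 in Raptor KO, lower without overlap but not past the test (-0.41, limma adjusted p = 0.377). In these cells 522 of 13237 genes (3.94%) passed between Raptor KO and Raptor fl/fl, 202 higher (1.53%) and 320 lower (2.42%). Of the 512 genes higher in rapamycin and tested in GMPs, 27 were higher (5.27%) and 9 lower (1.76%) in Raptor KO. Of the 522 lower in rapamycin, 5 were higher (0.958%) and 28 lower (5.36%). Over the 11334 genes tested in both, 512 passed higher and 522 lower in rapamycin, and 150 passed higher and 251 lower in Raptor KO. Of those 150 genes, 27 were higher (18%) and 5 lower (3.33%) in rapamycin. Of the 251 genes, 9 were higher (3.59%) and 28 lower (11.2%) in rapamycin. The sum of both same-direction counts, 55, was 22, 28 and 26 without Raptor fl/fl replicate 1, 2 and 3, and 40, 22 and 20 without Raptor KO replicate 1, 2 and 3.

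Tsc2 encodes an inhibitor of mTORC1 signalling. In the GMP libraries it had 269, 235 and 241 in the floxed controls and 103, 99.0 and 83.0 in the knockout, which passed (-1.38, limma adjusted p = 0.000169). Between these groups 1638 of 13237 genes (12.4%) passed, 696 higher (5.26%) and 942 lower (7.12%). Of the 512 genes higher in rapamycin, 12 were higher (2.34%) and 94 lower (18.4%) in Tsc2 KO, and of the 522 lower in rapamycin, 77 were higher (14.8%) and 19 lower (3.64%). Over the 11334 genes tested in both, 575 passed higher and 831 lower in Tsc2 KO. Of those 831 genes, 94 were higher (11.3%) and 19 lower (2.29%) in rapamycin. Of the 575 genes, 12 were higher (2.09%) and 77 lower (13.4%) in rapamycin. The sum of both opposite-direction counts, 171, was 74, 254 and 99 without Tsc2 fl/fl replicate 1, 2 and 3, and 248, 74 and 59 without Tsc2 KO replicate 1, 2 and 3.

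Lineage genes differed in the same GMP libraries. The summed value of erythroid and megakaryocyte genes was 7494, 20782 and 11564 in the Tsc2 controls and 21514, 41640 and 38255 in the knockout, and that of primary granule genes was 91534, 44279 and 94863 in the controls and 49652, 11579 and 16301 in the knockout. Tsc2 fl/fl replicate 2 stood apart from the other controls in both sums, and Tsc2 KO replicate 1 from the other knockout libraries. The primary granule sums of controls and knockouts overlapped, with Tsc2 KO replicate 1 above Tsc2 fl/fl replicate 2. Of 20 primary granule genes tested there, 0 were higher and 10 lower in Tsc2 KO, and of 54 erythroid and megakaryocyte genes 14 were higher and 9 lower (background 5.26% and 7.12%). Car2, the carbonic anhydrase of red cells, had 1158, 4770 and 2143 in the controls and 6178, 11910 and 11139 in the knockout (2.04, limma adjusted p = 0.0231). In the Raptor line the erythroid and megakaryocyte sum was 10508, 10239 and 10663 in fl/fl and 5984, 5382 and 6128 in KO, with no overlap. The primary granule sum there was 95127, 83479 and 87759 in fl/fl and 78467, 77197 and 74702 in KO. It was thus lower in Raptor KO without overlap, while in Hoxb8 cells it was higher in rapamycin. Of the 20 primary granule genes, 0 were higher and 0 lower in Raptor KO. The part of these lineage differences in the shared counts was not tested.

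Single genes show these values. Fads2 in GMPs had 51.9, 67.7 and 50.3 in Raptor fl/fl and 22.6, 14.9 and 35.7 in Raptor KO, with no overlap but not past the test (-1.25, limma adjusted p = 0.0577). In the Tsc2 line Fads2 had 44.2, 137 and 79.0 in fl/fl and 145, 219 and 172 in KO (1.16, limma adjusted p = 0.0425). Insig1 had 58.1, 74.4 and 106 in the Tsc2 controls and 163, 179 and 126 in the knockout (0.99, limma adjusted p = 0.0142). In the Raptor line Insig1 had 91.6, 87.2 and 94.9 in fl/fl and 69.3, 77.3 and 46.0 in KO, which did not pass (-0.53, limma adjusted p = 0.248). Hmgcs1, lower in rapamycin, was higher in Raptor KO, with 84.4, 94.2 and 104 in fl/fl and 178, 207 and 192 in KO (1.02, limma adjusted p = 0.0184), and did not pass in Tsc2 KO (0.59, limma adjusted p = 0.0959). Cenpa passed in both lines, with 445, 406 and 468 in Raptor fl/fl and 320, 239 and 257 in Raptor KO (-0.70), and 340, 569 and 504 in the Tsc2 controls and 625, 736 and 856 in the knockout (0.67). Eef1a1 had 17765, 19036 and 18909 in Raptor fl/fl and 25041, 23709 and 23350 in Raptor KO (0.37, limma adjusted p = 0.00873), and did not pass in Tsc2 KO (-0.10, limma adjusted p = 0.448). Of the 81 ribosomal protein genes, 6 were higher and 2 lower in Raptor KO (median 0.10), against 150 and 251 of 11334 genes. Rpl9 (0.03), Rpl39 (-0.04), Rpl7 (0.14) and Rps25 (-0.01) did not pass there. Serpinb10, high in rapamycin, was low in Raptor KO, with 42.6, 42.0 and 23.5 in fl/fl and 7.07, 4.46 and 5.64 in KO (-2.43, limma adjusted p = 0.0271). Mpo did not pass in either knockout (limma adjusted p = 0.824 in Raptor KO and 0.0515 in Tsc2 KO).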

How the data were processed

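SmartSeq2 libraries were prepared from total RNA, per the labels' protocols. Cuffnorm, Cufflinks 2.2.1, TopHat2 2.0.10 and BWA are named in the submitters' processing notes, and a genome build was not given in the sources used here. Signal values deposited by the authors are fragments of a gene scaled by each library's size factor. Of the non-zero values of a Hoxb8 library, 98.85% to 98.94% were whole multiples of its step (tolerance 0.01). Values under 0.01 of the step were counted among these. The step, refined from the library's commonest non-zero value, gave the fragments per library.

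The 6 Hoxb8 libraries were fitted in limma 3.58.1 (R 4.3.3) on log2(value + 1), with 3 groups and without a pairing. Variances were moderated with an expression trend and robust estimation, and p-values were adjusted by Benjamini-Hochberg over all genes with a value of at least 1 in 2 or more of the 6. The 12 GMP libraries had a fit of their own, with the same minimum in at least 3. The test was tested on simulated data: of 200 genes planted at 1.5, 2 and 4-fold, 0%, 33.5% and 89.5% were recovered, with 0, 1 and 2 false calls. Noise was drawn independently for each gene and library, and genes of low level were not planted. Deviations shared by the genes of a library were thus absent, and the false calls do not measure them. In the data, 279 of the 1047 calls were at least 2-fold.

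The libraries compared and the 36 gene lists were chosen with earlier results of these data known. No set test was run. Results for some genes are not reported here. Genes were named by a rule: the 15 highest and 15 lowest called fold changes with a group mean of at least 10 and no overlap, up to 6 called members of each list by p, up to 3 by level for lists without a call, and 13 pathway genes. Part of these is named. Lss, Srebf1, Acat2, Ebp, Elane, Ltf, Mmp9, Chil1, S100a8, Camp, Kit, Mki67, Irf8, C1qa, Eif5, Eif5a, Clec4n, Tlr2, Sirpa, Rps6, Rpl15, Rps15a, Rps26, Rps27, Kif22, Cdc20, Ube2c, Ccnb2 and Mcm5 were named outside it, after their values were seen. The alternatives covered the trend, robust estimation, filters, pseudocounts, scaling, a replicate block, voom weights, a fit of the inhibitor libraries alone and fits without 1 library. Sample titles gave the groups, because a genotype label of the Tsc2 samples names Raptor. RefSeq promoter windows were matched by symbol for 8980 tested genes.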

Additional observations from a re-analysis of the deposited data

How the results depend on the processing

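Against 1047 calls (523 higher, 524 lower in rapamycin), limma gave 0 (0 and 0) without an expression trend, with 2150 genes at an unadjusted p under 0.05. It gave 14 (9 and 5) with neither trend nor robust estimation, a setting added after seeing the data, and 542 (300 and 242) with the 4 inhibitor libraries alone. Leaving out 1 library gave 128 to 863 genes (80 to 395 higher and 48 to 474 lower). Filters, pseudocounts, quantile normalization, a common total, no robust estimation and voom weights (added after seeing the data, with the deposited size factors in place of TMM) gave 797 to 1139. Without the trend, 0 members of the sterol, fatty acid, ribosomal protein, translation factor, S phase, mitosis, primary granule and secondary granule lists passed, and with neither trend nor robust estimation 1 fatty acid gene did and 0 in the other lists. Without 1 library, the ranges were 5 to 11 sterol, 3 to 7 fatty acid, 11 to 68 ribosomal protein, 4 to 12 translation factor, 2 to 15 S phase, 9 to 33 mitosis, 2 to 10 primary granule and 4 to 12 secondary granule genes. With the inhibitor libraries alone 38 ribosomal protein and 7 S phase genes passed, and under quantile normalization 8 S phase genes. Of the 151 named genes that passed, 47 kept their call in the 17 settings with a trend or voom, and 83 did when leaving out SL0101 replicate 1 is not counted; 0 kept it in all 19. The cause of these losses was not tested.

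The labels number replicates without saying that a number marks a shared batch. With a replicate block, 1691 genes passed (798 higher, 893 lower), 20 of them sterol and 25 S phase genes, and all 1047 kept their call. With group means removed, same-numbered libraries correlated at 0.0823 (DMSO and rapamycin), 0.129 (DMSO and SL0101) and 0.0382 (rapamycin and SL0101), over 2 numbers. In GMPs, the 55 genes shared in direction with Raptor KO were 11 without a trend, 20 to 40 without 1 library and 70 with the block, and the 171 opposite in Tsc2 KO were 84 without a trend, 59 to 254 without 1 library and 194 with the block. These GMP settings were added after seeing the data. Count-based tests and voom with TMM were not run, since whole fragment numbers were not recovered for all values. At 2.31 to 3.30 M fragments, a value of 1 stands for about 1 fragment, so differences in genes near 0 were not detectable.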

Other observations

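A few of the largest fold changes sit in genes whose level cannot be read as fragments of that gene alone. H2-T9, a class I-like histocompatibility gene, had 21.0 and 14.6 in rapamycin and under 0.01 in the other Hoxb8 libraries, with a value counted as fractional in 1 of 6 libraries. The tolerance of 0.01 counts a value just above 0 as whole, so such counts can miss fractions near 0. Slc10a3-ubl4, a readthrough gene, had 27.8 and 4.63 in SL0101 and about 0 in rapamycin, with fractional values in 3 of 6 libraries. Ndufs5, a subunit of complex I, had 6.33 and under 0.01 in rapamycin and 16.6 and 18.9 in SL0101. Fractions arise where fragments are shared among overlapping or near-identical genes, so these 3 values are uncertain.

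Nkg7, a granule membrane protein, had 96.2 and 98.5 in rapamycin, 21.0 and 41.7 in SL0101, and 11.1 and 14.9 in DMSO (log2 fold change 1.68, limma adjusted p = 0.00471). Cd244, a SLAM family receptor, had 40.3 and 25.8 in rapamycin, 2.62 and 9.85 in SL0101, and 11.9 and 12.4 in DMSO (2.41, limma adjusted p = 0.00553). Neither passed without SL0101 replicate 1. Dck, which phosphorylates deoxynucleosides in the salvage pathway, had 159 and 215 in rapamycin, 316 and 348 in SL0101, and 405 and 369 in DMSO (-0.84, limma adjusted p = 0.00413). Tdrd5, a tudor domain gene, was at 0 in both DMSO libraries, at 25.7 and 17.9 in rapamycin and at 2.62 and 1.52 in SL0101 (2.90), and did not pass without rapamycin replicate 1, SL0101 replicate 1 or SL0101 replicate 2.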
